A study of Arabidopsis thaliana with 4 samples.

Results

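The 6 genes described here are AKINBETA1 (AT5G21170), AT2G20670, AT5G19120, AT3G15450, AT3G15630 and SWEET17 (AT4G15920) of Arabidopsis thaliana. They are linked to sugar starvation and to the kinase SnRK1. Each was represented by 1 probe set, annotated to that gene alone, so they are 6 of the 13286 genes that had such a probe set. The genes were chosen by their signals on these same arrays, as genes with a lower level in the add3 mutant, so their differences between the groups are a description and carry no test.

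Transcripts were measured in above-ground seedling tissue at developmental stage 1.02, which the labels list as hypocotyls, cotyledons, meristems, leaf primordia and the first pair of true leaves. The add3 group was an EMS mutant (ARRESTED DEVELOPMENT 3) in the Col-3 gl1 background, and Col-0 served as wild type, so effects of the mutation and of the background cannot be told apart. Both groups were grown on a peat mix under constant light (24 h) at 29 °C, after a cold treatment of 4 days at 4 °C. Each group had 2 samples with 1 Affymetrix ATH1 array each, and nothing in the labels says that the samples came from separate plantings, so the spread behind the p-values may be technical.

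SnRK1 is a plant protein kinase related to yeast SNF1 and animal AMPK. It is a complex of a catalytic alpha, a beta and a gamma-type subunit, it is active when carbon and energy run low, and it shifts transcription from growth to the breakdown of stored carbon, protein and lipid. Sugars, with trehalose 6-phosphate as a signal, hold it back. Many transcripts that accumulate in darkness or carbon starvation in seedlings and leaves depend on it, together with bZIP transcription factors that it acts on.

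The array values are MAS5 signals on a linear scale with each array scaled as a whole, and differences below are log2(signal + 12.5), add3 minus wild type. Median signals were 48.2 to 52.1 per array. Actin 3' to 5' signal ratios, a measure of RNA quality, were uneven between replicates. The first control set gave 5.04 and 7.23 in wild type and 5.47 and 7.18 in add3. A second set gave 4.49 and 2.71 in wild type and 3.10 and 3.17 in add3. The part of RNA quality in the results below was not tested. The highest of 27 bacterial control probe sets, used as the background level, read 12.3 to 25.4, and each of the 6 genes was above it on every array. Among leaf markers 3 of 17 had a probe set of their own, and all of these were above background on each array. They were RCA, encoding Rubisco activase (3521 and 3068 in wild type, 3086 and 3537 in add3), PSBY of photosystem II (1588 and 1726, then 2697 and 2711) and LHCB4.3 (225 and 182, then 373 and 393). Of 12 root markers 4 had one. The beta-glucosidase gene PYK10, which is also active in hypocotyls and cotyledons, read 2034 and 2032 in wild type and 2511 and 2571 in add3. The root hair gene EXPA7 read 26.8 and 17.9 in wild type, above background, and 12.1 and 5.87 in add3, below it. EXPA18, another root hair gene, read 5.16 and 29.0 in wild type and 30.4 and 31.5 in add3. It was above background on all arrays but wild-type replicate 1. AT5G66815 lay between 0.444 and 1.08, below background on each array. The part of these marker differences in the results below was not tested. In this mixed seedling tissue, fewer cells of a type and less RNA per cell cannot be told apart.

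The 6 genes were lower in add3 by a median log2 difference of -0.74, where all 13648 tested probe sets had a median of -0.05. Of all tested probe sets 26.3% had an unadjusted p under 0.05 in limma, the share against which such counts below are to be read. Both add3 signals lay below both wild-type signals for all 6, a pattern that the choice of genes fixes and that 32.3% of tested probe sets showed. The genes formed a pair with a large difference, AT2G20670 and AT5G19120, and a set of 4 with smaller differences.

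**Figure D1:**
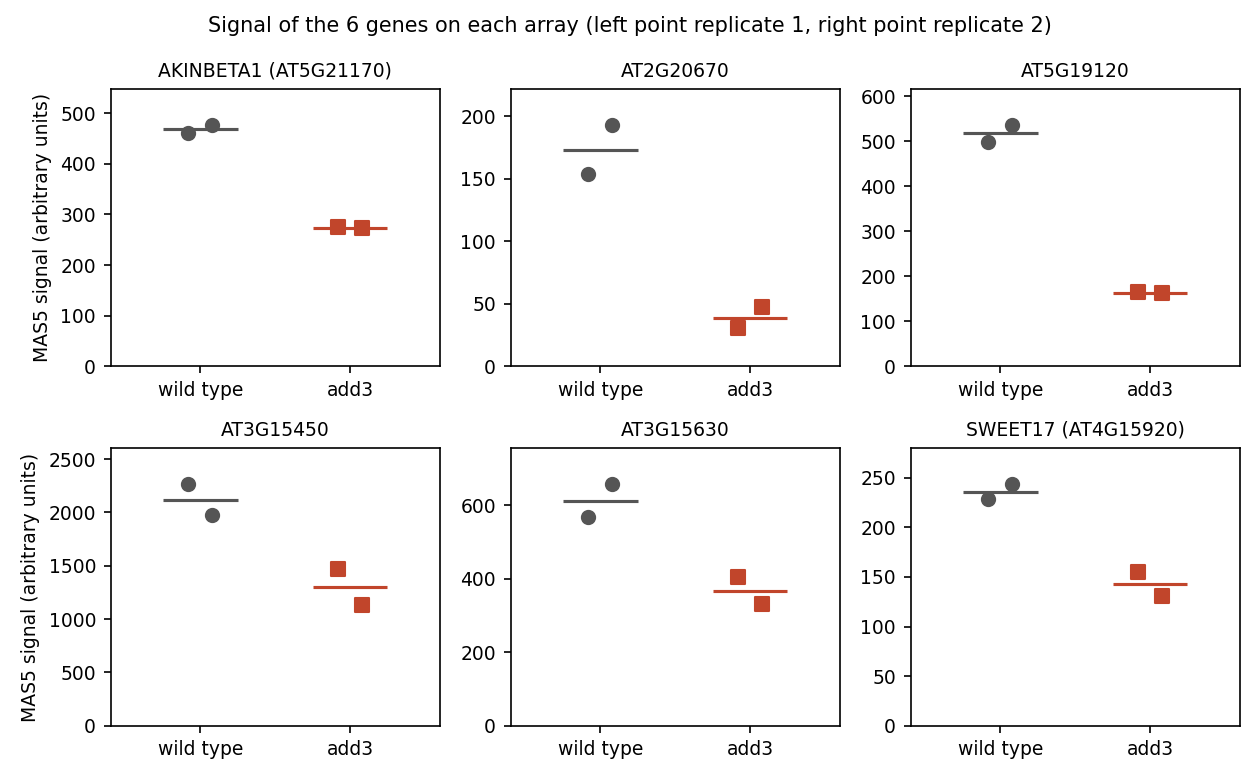
MAS5 signal (arbitrary units, axes from 0) of the 6 genes on each array, with circles for wild type, squares for add3 and lines at the group means (n = 2 arrays each). In every panel both add3 points lie below both wild-type points, and the gap is widest relative to the wild-type level for AT2G20670, where the add3 mean was 22.6% of it.

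AKINBETA1 encodes a beta subunit of SnRK1, a scaffold that holds the catalytic and gamma-type subunits together and helps to place the complex in the cell. Its signal was 461 and 476 in wild-type replicates 1 and 2, and 275 and 273 in add3 replicates 1 and 2. The groups lay far apart relative to their replicates, which differed by 0.05 on the log2 scale in wild type and 0.01 in add3. The log2 difference was -0.75 (SE 0.12), and the add3 mean was 58.4% of the wild-type mean. The gene table lists 3 transcripts for AKINBETA1, and 1 probe set gives 1 value for the locus.

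The other beta subunit genes gave differences near 0. AT4G16360, listed as KINbeta2, read 130 and 120 in wild type and 120 and 126 in add3, with a log2 difference of -0.02 (95% interval -0.33 to 0.28; limma adjusted p = 0.926). AT2G28060, listed as KINbeta3, read 147 and 131 in wild type and 143 and 139 in add3, with a difference of 0.02 (-0.29 to 0.33; limma adjusted p = 0.937). The groups overlapped for both genes, and the sign of both small differences turned under other settings. Of 9 listed loci for the other SnRK1 subunits and the upstream kinases these 2 were tested, and neither was called (0 of 2 also had an unadjusted p under 0.05). The remaining 7, which include those of the catalytic subunits, had no probe set with 1 annotated gene and were not analysed here.

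AT2G20670 encodes a DUF506 family protein whose transcript is known to be repressed by sugars. Its signal was 153 and 193 in wild type and 30.5 and 47.7 in add3. It had the lowest add3 level relative to wild type of the 6 genes and the widest spread between replicates, 0.31 in wild type and 0.49 in add3 on the log2 scale. The log2 difference was -1.86 (SE 0.20), and the smallest of the 4 differences between an add3 and a wild-type array was -1.46. This was the 15th lowest difference among the 13648 tested probe sets. The add3 replicate 1 signal of 30.5 was close to that array's background level of 25.4.

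Of 10 other listed DUF506 loci 4 were tested, of which 1 fell and 0 rose, where 3.14% of all tested probe sets fell. AT3G22970 fell from 419 and 411 in wild type to 251 and 229 in add3 (log2 difference -0.76, SE 0.12, limma adjusted p = 0.0184). That call was lost without add3 replicate 2 (limma adjusted p = 0.0800). AT3G07350 read 80.4 and 53.3 in wild type and 25.9 and 40.8 in add3, a difference of -0.79 that did not pass (limma adjusted p = 0.0962). The differences of AT2G38820 and AT2G39650 were -0.43 and -0.35, with no call for either. All 4 estimates were below 0, also with median scaling and with quantile normalization. Their median was -0.59, where that of all tested probe sets was -0.05.

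AT5G19120 encodes a protein of the aspartyl protease family. Its signal was 499 and 535 in wild type and 165 and 162 in add3. The add3 replicates were nearly equal, with a gap of 0.02 on the log2 scale, and the wild-type replicates differed by 0.10. The log2 difference was -1.59 (SE 0.12), the add3 mean was 31.6% of the wild-type mean, and the difference was the 28th lowest of all tested probe sets. The 4 differences between single arrays ranged only from -1.53 to -1.65.

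AT3G15450 encodes a protein with YGL and LRDR motifs, of a family first described as aluminium-induced, and its transcript is among those known to accumulate in darkness and under SnRK1 activity. Its signal was 2262 and 1979 in wild type and 1473 and 1131 in add3. The groups did not overlap, but add3 replicate 1 came within 0.42 on the log2 scale of wild-type replicate 2, where the widest pair of arrays differed by 0.99. The log2 difference was -0.71 (SE 0.15), and the add3 mean was 61.4% of the wild-type mean.

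The 4 listed relatives of AT3G15450 were all tested, and 0 were called, with 2 at an unadjusted p under 0.05 in limma, where 26.3% of all tested probe sets had one. AILP1 (AT5G19140) read 1335 and 1761 in wild type and 1207 and 978 in add3 (log2 difference -0.49, limma adjusted p = 0.121). AT4G27450 read 439 and 401 in wild type and 326 and 284 in add3 (-0.45, limma adjusted p = 0.0838). Both had groups that did not overlap. AT5G43830 and AT3G22850 had differences of -0.08 each and overlapping groups. All 4 estimates were below 0 as scaled by the authors, and 2 were with arrays scaled to a common median. The median of all tested probe sets was -0.05 and 0.04 in these settings.

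AT3G15630 encodes a protein of unknown function. Its signal was 568 and 656 in wild type and 404 and 330 in add3. The highest add3 signal lay below the lowest wild-type signal, with replicate gaps of 0.21 in wild type and 0.28 in add3 on the log2 scale. The log2 difference was -0.72 (SE 0.15).

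SWEET17 encodes a fructose carrier of the vacuolar membrane. Its signal was 228 and 243 in wild type and 155 and 130 in add3, and no add3 array reached the wild-type range. The log2 difference was -0.68 (SE 0.14), and the add3 mean was 60.5% of the wild-type mean.

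The 15 other SWEET genes with a probe set of their own were mostly dim, and 6 were tested, none of which was called (1 had an unadjusted p under 0.05 in limma). SWEET16 encodes another SWEET carrier of the vacuolar membrane. It read 82.0 and 94.9 in wild type and 62.6 and 44.2 in add3 (log2 difference -0.63, SE 0.18, limma adjusted p = 0.0857). SWEET3 read 60.7 and 35.3 in wild type and 32.1 and 30.1 in add3 (-0.44, limma adjusted p = 0.291). SWEET11, a sucrose exporter of phloem loading in leaves, read 1040 and 1252 in wild type and 1270 and 1221 in add3, with overlapping groups (0.12, 95% interval -0.17 to 0.42). SWEET1 and SWEET2 also overlapped, with differences of 0.04 and 0.0047.

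Another carrier gene of the vacuolar membrane fell. TMT1 (AT1G20840), a monosaccharide carrier that loads hexoses into the vacuole, read 322 and 365 in wild type and 180 and 185 in add3 (log2 difference -0.87, SE 0.13, limma adjusted p = 0.0157), and its call held without any 1 array (limma adjusted p = 0.0296 to 0.0448). Its paralogues TMT2 and TMT3 had differences of -0.31 and -0.40 with no call (limma adjusted p = 0.227 and 0.273). In the list of sugar carriers and invertases, 1 of 5 tested members of 18 listed fell and 0 rose, where 3.14% of all tested probe sets fell. The invertase gene AT1G62660 had a difference of 0.26.

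**Figure D2:**
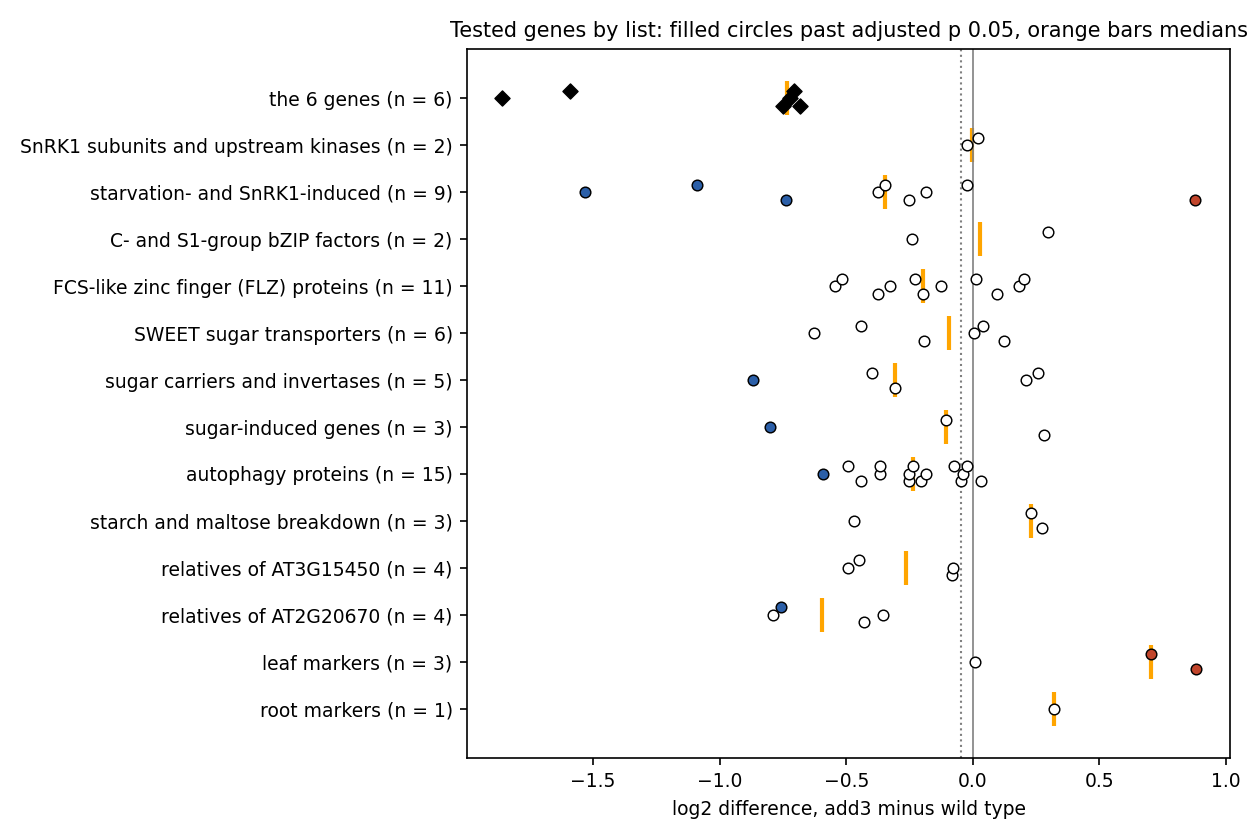
Log2 difference, add3 minus wild type, of each tested gene by list. Diamonds are the 6 genes, filled circles passed a limma adjusted p of 0.05 (blue lower, red higher), open circles did not, orange bars are list medians, and the dotted line is the median of all tested probe sets (-0.05). The starvation-induced list spreads from -1.53 to 0.88, and the 2 other beta subunit genes lie near 0.

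Beyond the 6 genes, 198 loci of sugar and energy signalling in 12 lists were followed. Of these, 78 had a probe set annotated to 1 gene and 64 were tested. Among the 64, 7 fell and 1 rose, where 3.14% of all tested probe sets fell and 4.17% rose. Their median log2 difference was -0.23 against -0.05 for all tested probe sets. The 1 rise, AT5G09300, passed the filter on dim probe sets only through its add3 signals. The lists were written with earlier results of these data known, so these shares and medians are a description and carry no set test. The 7 falls became 3 without add3 replicate 2 and 4 without wild-type replicate 1, and the 1 rise was lost without any 1 of the 4 arrays. With no filter on dim probe sets none of the 64 loci was called, in a setting where limma called 13 of 22746 probe sets and 4143 had an unadjusted p under 0.05.

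The list of starvation-induced and SnRK1-induced genes had 9 tested members of 40 listed loci, of which 3 fell and 1 rose (median -0.35). Of all tested probe sets 3.14% fell and 4.17% rose. In limma 6 of the 9 had an unadjusted p under 0.05, where 26.3% of all tested probe sets had one. AT2G30600, a BTB/POZ domain protein gene, fell from 733 and 579 in wild type to 268 and 175 in add3 (log2 difference -1.53, SE 0.21, limma adjusted p = 0.0130). A second probe set for AT2G30600 read 138 and 166 in wild type and 88.5 and 48.3 in add3 (-1.07, limma adjusted p = 0.0447). AT1G18270, an aldolase family gene, fell from 154 and 148 to 99.1 and 73.7 (-0.74, limma adjusted p = 0.0422), and its call was lost without add3 replicate 2 (0.171) or wild-type replicate 1 (0.112) or 2 (0.0833), with quantile normalization (0.0530) and with no intensity trend (0.0609). ATL8, a RING finger protein gene, IVD and AT2G32150 had lower signals in add3 without overlap between the groups and without a call (-0.25, -0.37 and -0.35). Signals in add3 were lower without overlap for 6 of the 9, where 32.3% of all tested probe sets showed this.

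Members of this list that act in branched-chain amino acid breakdown went both ways. IVD, named above, acts in leucine breakdown and was lower in add3 without a call (-0.37, limma adjusted p = 0.167). MCCA, the biotin-carrying subunit gene of methylcrotonoyl-CoA carboxylase in leucine breakdown, fell from 269 and 260 to 107 and 130 (log2 difference -1.09, SE 0.14, limma adjusted p = 0.0123). MCCB, which encodes the partner subunit of the same enzyme, read 257 and 274 in wild type and 253 and 270 in add3 (-0.02, 95% interval -0.31 to 0.27). AT5G09300, a subunit gene of the branched-chain ketoacid dehydrogenase, rose from 30.2 and 31.2 to 70.3 and 63.5 (0.88, SE 0.17, limma adjusted p = 0.0298). Its wild-type mean of 30.7 lay below the filter on dim probe sets (33.2), so it was tested only through its add3 signals (mean 66.9). The call of AT5G09300 was lost without any 1 array (limma adjusted p = 0.0512 to 0.142).

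The FCS-like zinc finger (FLZ) proteins bind SnRK1 subunits and act as adaptors. Of 18 listed genes 11 were tested and 0 were called in limma, with 3 at an unadjusted p under 0.05, a share of the 11 near the 26.3% of all tested probe sets. AT1G74940 read 188 and 211 in wild type and 138 and 127 in add3 (log2 difference -0.54, limma adjusted p = 0.0551), and AT5G11460 read 86.5 and 82.0 in wild type and 54.4 and 55.8 in add3 (-0.52, limma adjusted p = 0.0740). The groups did not overlap for either. AT1G78020 and AT2G44670 had differences of 0.10 and 0.18 and overlapping groups. The median over the 11 was -0.20. Of the bZIP factors of the C and S1 groups, BZIP53 read 318 and 340 in wild type and 268 and 284 in add3 (-0.24, limma adjusted p = 0.258). bZIP44 had overlapping groups (0.30, limma adjusted p = 0.433).

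Autophagy, which recycles cell contents in starved plants, had 15 tested genes of 28 listed loci. Of these, 1 fell and 0 rose, where 3.14% of all tested probe sets fell. In limma 4 of the 15 had an unadjusted p under 0.05, where 26.3% of all tested probe sets had one. AT2G37840, a gene of the ATG1 kinase family that starts autophagosome formation, fell from 142 and 137 to 85.0 and 92.1 (log2 difference -0.59, SE 0.13, limma adjusted p = 0.0434). Its call was lost without any 1 array (limma adjusted p = 0.0784 to 0.177), with arrays scaled to a common median (0.0589), with quantile normalization (0.0562) and with no intensity trend (0.0610). A dimmer, untested probe set for AT2G37840 read 18.4 and 38.8 in wild type and 21.4 and 19.5 in add3. ATG8B, a gene of the ubiquitin-like ATG8 family that coats autophagosomes, read 101 and 104 in wild type and 69.7 and 68.6 in add3 (-0.49, limma adjusted p = 0.0724). Estimates were below 0 for 14 of the 15 genes as scaled by the authors, for 10 with arrays scaled to a common median and for 13 with quantile normalization. The median difference of all tested probe sets under these 3 scalings was -0.05, 0.04 and -0.01.

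The sugar-induced genes and the starch and maltose breakdown genes gave mixed values. Of 12 listed sugar-induced genes 3 were tested, and DFR of anthocyanin synthesis fell from 165 and 155 to 88.4 and 84.5 (log2 difference -0.80, SE 0.13, limma adjusted p = 0.0188), a call lost without add3 replicate 2 (0.0587) or wild-type replicate 1 (0.0569). DFR was the 1 fall among the 3, with 0 rises, where 3.14% of all tested probe sets fell. In limma 1 of the 3 had an unadjusted p under 0.05, where 26.3% of all tested probe sets had one. APL3, a starch synthesis gene induced by sugars, had overlapping groups (0.28, limma adjusted p = 0.470). Of 18 starch and maltose breakdown loci 3 were tested and 0 were called in limma, with 0 at an unadjusted p under 0.05. PWD, encoding a kinase that phosphorylates starch, read 364 and 367 in wild type and 423 and 441 in add3 (0.23, limma adjusted p = 0.255), and AMY1, an alpha-amylase gene, read 42.9 and 60.8 in wild type and 29.0 and 38.7 in add3 (-0.47, limma adjusted p = 0.222). None of the 22 listed loci of trehalose 6-phosphate metabolism had a probe set with 1 annotated gene, and they were not analysed here.

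**Figure D3:**
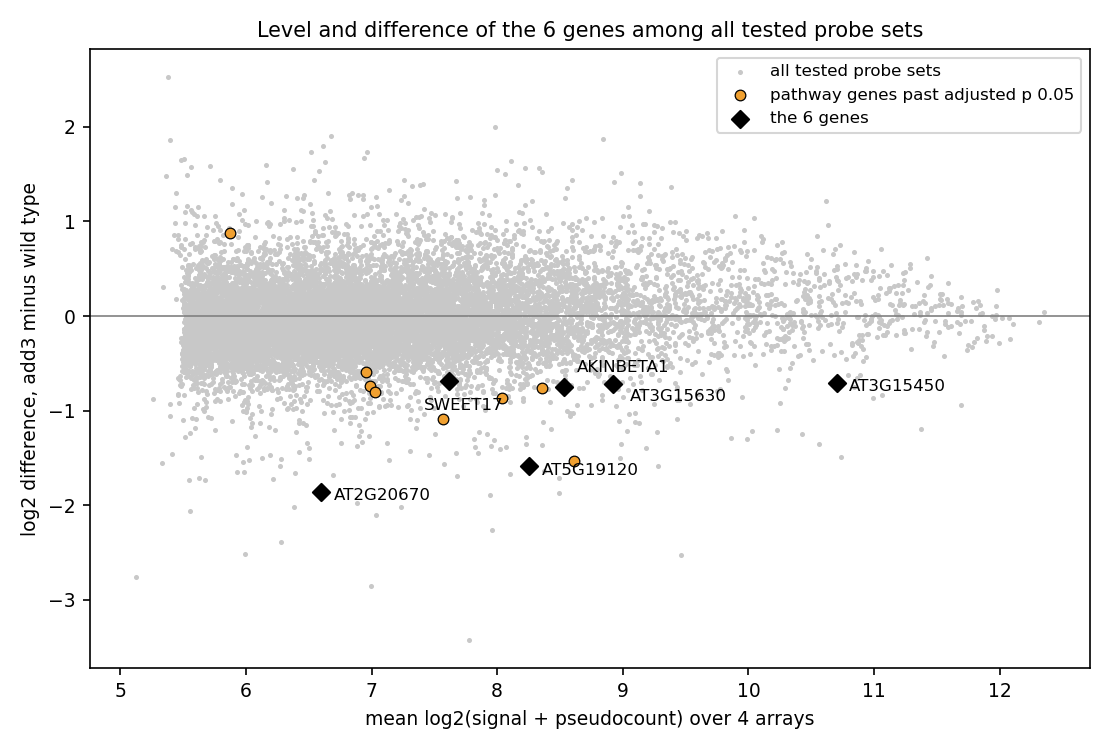
Log2 difference, add3 minus wild type, against mean log2(signal + pseudocount) over the 4 arrays, for the 13648 tested probe sets (grey), the 6 genes (diamonds) and the pathway genes past a limma adjusted p of 0.05 (orange). AT2G20670 and AT5G19120 lie near the lower edge of the cloud, and the other 4 genes lie at about -0.7 over a wide range of levels.

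The 4 genes with smaller differences lay between the 355th and the 459th lowest of the 13648 differences, that is within the lowest 2.60% to 3.36%. Their add3 means were 58.4% to 61.4% of their wild-type means, and those of AT2G20670 and AT5G19120 were 22.6% and 31.6%. The 4 log2 differences spanned 0.07, less than the SE of any of them, and 0.14 to 0.22 without 1 array, widest without add3 replicate 2 (-0.74 to -0.52). The replicates of a group did not order the genes in 1 way. Add3 replicate 2 gave the lower signal for 5 of the 6 genes, by 0.01 to 0.38 on the log2 scale, and the higher one for AT2G20670. Wild-type replicate 2 was the higher one for all but AT3G15450.

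Tested loci on either side of the 6 genes were then examined. The nearest tested gene on each side was taken from the order of protein-coding genes in the TAIR10.1 gene table, which gave 12 loci. Up to 3 genes lay in between for 10 of them, and 6 and 43 genes lay between AKINBETA1 and its tested neighbours AT5G21105 and AT5G22280. Of the 12, 1 fell and 0 rose, where 3.14% of all tested probe sets fell, 2 had an unadjusted p under 0.05, where 26.3% did, and the median log2 difference was -0.15. The fall was DI21 (AT4G15910), a drought-induced gene directly next to SWEET17 in the table, which read 398 and 312 in wild type and 124 and 131 in add3 (log2 difference -1.38, SE 0.15, limma adjusted p = 0.00933, and 0.0511 with no filter on dim probe sets). DI21 is named because its neighbour position singled it out once its value had been seen. Its difference was larger than that of SWEET17 itself, while AT4G15930 on the other side of SWEET17 overlapped between the groups (-0.05, limma adjusted p = 0.827). PIA1, the neighbour of AT2G20670 with 3 genes between them, read 338 and 327 in wild type and 208 and 260 in add3 (-0.49, limma adjusted p = 0.0836). The direct neighbours AT5G19130 of AT5G19120 and AT3G15460 of AT3G15450 had differences of 0.0026 and 0.28, with no call.

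**Figure D4:**
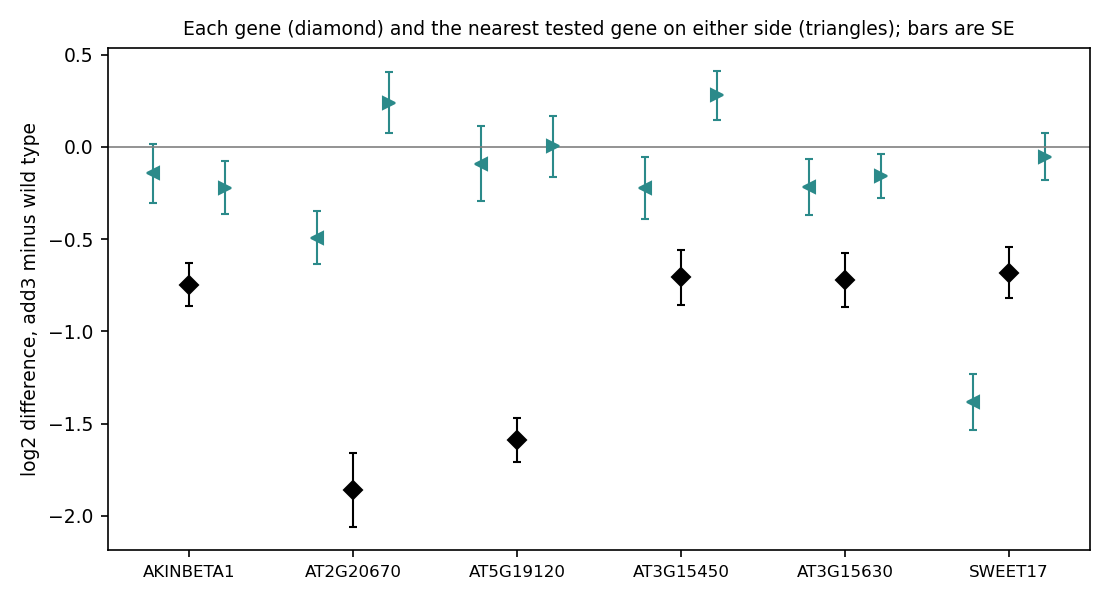
Log2 difference, add3 minus wild type, with its SE, for each of the 6 genes (diamonds) and the nearest tested gene before and after it in the gene table (triangles). DI21, before SWEET17, is the only neighbour below its gene, at -1.38 against -0.68, and the other 11 lie between -0.49 and 0.28.

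Genes whose signals followed the 6 genes over the arrays were sought by Pearson correlation with the mean of their centred log2 values, among 7331 tested probe sets with 1 annotated gene. The 5 highest were AT5G56350, BSH, AT5G11600, AT3G17030 and GH9B13, each with r = 1.00 over 4 arrays. These 4 points are 2 pairs of replicates, so the coefficient follows mainly the difference between the groups, and 634 probe sets had r above 0.95. GH9B13, a gene of the endoglucanase family, read 271 and 289 in wild type and 96.2 and 90.3 in add3. BSH, a chromatin remodelling subunit gene, read 111 and 114 in wild type and 81.9 and 80.7 in add3, so a high correlation went with differences of very different size (-1.47 and -0.41).

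**Figure D5:**
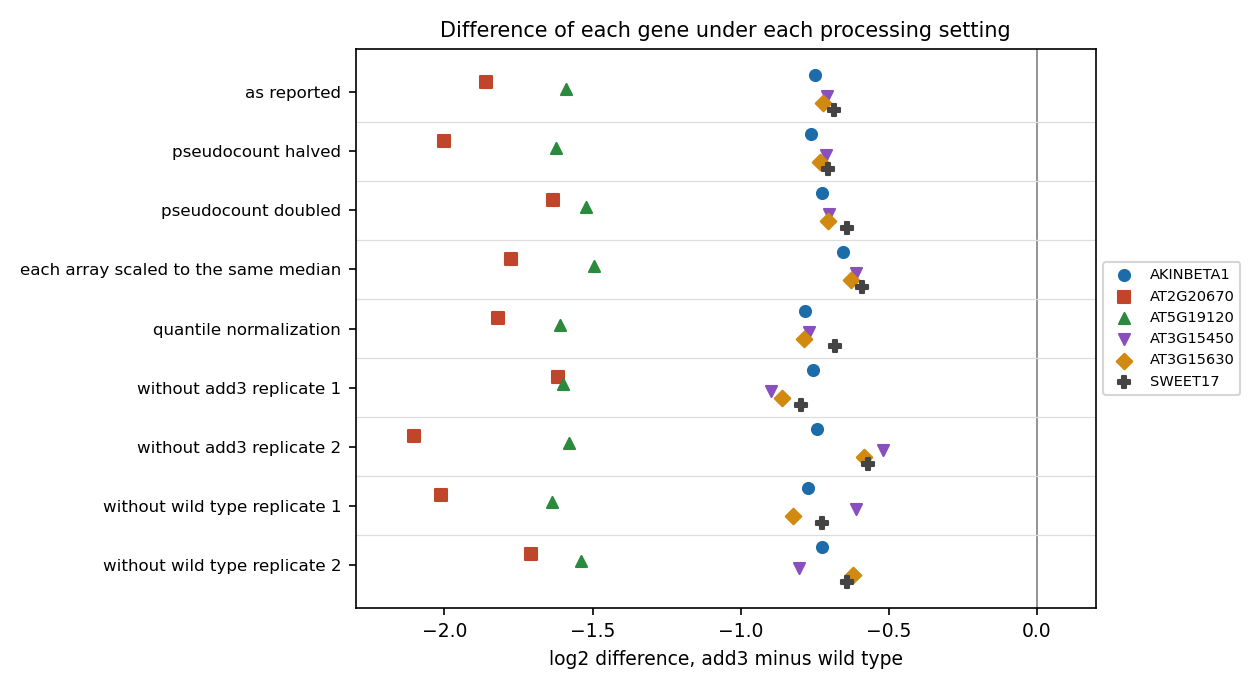
Log2 difference, add3 minus wild type, of the 6 genes as reported and under each alternative that moves it, including the removal of each array. No point reaches 0, which the choice of genes fixes for the other pseudocounts and the removed arrays. AT2G20670 moves most, between -1.62 and -2.10.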

How the data were processed

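Each array's deposited values are signal intensities, 1 for each probe set, that the authors made using MAS5, as the submitters' processing notes state. Its version is not given in the sources used here. Trimmed means of the deposited intensity were 100.0 on each array. Of 22810 probe sets 64 controls were left out, and the platform annotation named 1 gene for 13513, several for 503 and none for 8730. The TAIR10.1 gene table held 13436 of the 13513 and gave names and gene order. A locus was read from its brightest single-gene probe set.

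Tests used log2(signal + 12.5), with 0.25 of the median signal as pseudocount, and left out the dimmest probe sets (mean signal below the 40th percentile, 33.2). Folds of dim genes are understated. The lmFit and eBayes functions of limma 3.58.1 (R 4.3.3), with an intensity trend and 2 residual degrees of freedom, gave two-sided p-values, adjusted by Benjamini-Hochberg over 13648 probe sets, threshold 0.05. The fit was tested on simulated data with independent errors, whose spreads were drawn from the fitted model. That simulation could not show whether the samples of a group are independent. The number of arrays limits the precision.

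The 6 genes and all lists were chosen with earlier results of these data known, and the lists come from general knowledge. Named were the 6 genes, up to 6 called loci per list (else the 2 with the smallest p) and the 5 most similar patterns. Marker genes, family members or partners named beside these, other neighbours, and second probe sets were chosen after their values were seen. Alternatives were other pseudocounts, filters, scalings and variance models, a replicate block, single arrays left out and shared probe sets left out. Sequences of promoters and proteins were not analysed here.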

Additional observations from a re-analysis of the deposited data

How the results depend on the processing

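The differences of the 6 genes, which were chosen as lower, stayed below 0 in the 8 alternatives that can move them. The other 6 leave them as they are by construction. Both add3 signals lay below both wild-type signals for all 6, so another pseudocount or a removed array could not turn a sign. Only median scaling and quantile normalization could have done so. The median of the 6 genes, -0.74, was -0.64 with arrays scaled to a common median, -0.78 with quantile normalization and -0.88 to -0.66 without 1 array. In all, 569 probe sets rose and 428 fell (57.1% of calls higher). With arrays scaled to a common median 937 rose and 320 fell (74.5%), with no filter 5 rose and 8 fell, and with no intensity trend 303 rose and 241 fell. Without 1 array 232 to 506 rose and 205 to 311 fell. Of the pathway loci, with 1 rise and 7 falls, 0 rose and 0 fell with no filter, 0 rose with the filter at the 60th percentile, and 0 rose and 3 to 6 fell without 1 array. AT4G16360 turned to 0.066 with median scaling and 0.014 with quantile normalization, and without 1 array it ranged from -0.073 to 0.024, as AT2G28060 did from -0.056 to 0.098. The filter at the 60th percentile left AT5G09300, the only pathway rise, untested and gave 8 pathway falls. The cause of the other changes was not tested, except that no filter adds dim probe sets to the adjustment and removing an array leaves fewer samples.

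The replicate block gave 501 rises and 377 falls, and 6 pathway falls, with AT2G37840 losing its call (limma adjusted p = 0.0636). The labels share only replicate numbers, and deviations of same-numbered samples correlated at -0.12 over 13648 probe sets. A crossed block, chosen after seeing the data, gave 1050 rises and 859 falls and 11 pathway falls.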
